A study of Mus musculus with 2 samples.

Results

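The 701 regions described here are USF1 peaks away from gene starts that hold neither of the hexamers most often bound by USF proteins. They were taken from a list of 10624 peaks in the mouse build mm9, of which they make up 6.60%. A peak was kept when its summit lay over 1 kb and up to 100 kb from the nearest 5′ end of a protein-coding transcript and outside the exons of such transcripts. The stretch reaching 50 bp to the left and right of the summit also had to hold no CACGTG and no CACATG on either strand. By position alone 6304 peaks were distal. Of these, 3238 held CACGTG, 2365 held CACATG and no CACGTG, and the 701 members (11.1%) held neither. The position step left out 3082 peaks within 1 kb of a 5′ end, 993 over 100 kb away and 245 in exons.

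USF1 was mapped by ChIP-seq, in which DNA bound to a protein is pulled down with an antibody and sequenced, in CH12.LX. CH12.LX is an immortalized B-cell lymphoma line from a mouse of strain B10.H-2aH-4bp/Wts. The labels give 1 group of 2 biological replicates from the same donor, no treatment and no age. The mm9 list was made from the alignments of both replicates, so no member has a value per replicate, and the number of reads behind a peak is unknown. Peak lists carry no expression, so the labelled cell type could not be checked against its markers. Each peak has the authors' own signal value, whose scale is not given in the sources used here.

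USF1 is a basic helix-loop-helix leucine zipper protein that binds DNA as a dimer, with itself or with USF2. Each partner reads one side of a palindromic hexamer called an E-box, and both proteins are present in most tissues. CACGTG is the best known site of USF, MYC, MAX and MITF family proteins, and USF prefers it with GT before and AC after it. Other helix-loop-helix proteins read other centres. E2A proteins, which B cells need, bind CAGGTG, which reads as CACCTG from the opposite strand, and AP-4 and several muscle and nerve factors bind CAGCTG.

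The member summits held a small set of hexamers closely related to the excluded sites, and the sequences are shown first because the counts that follow turn on them. The first group is from the strongest members with CACCTG, called the CC-centred core, which sat in many members between GT and AC. All sequences are NCBIM37 (mm9) reference sequence, written 5′ to 3′ on the strand given, with the hexamer in capitals.
Ppy, chr11:101958444-101958473, plus strand: ccttctcggggtCACCTGaccatgctgtct
Tcf20, chr15:82730237-82730266, minus strand: gctgcgcgccgtCACCTGacgctctgttat
Cabp1, chr5:115634964-115634993, plus strand: ccttcggtgagtCACCTGaccctccaatcc
Pgs1, chr11:117849498-117849527, minus strand: tgtaataagcgtCACCTGattctaccgtcc
Cebpb, chr2:167523574-167523603, plus strand: gacactcttggtCACCTGaccaaagcaagt

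The second group is from the strongest members with the palindrome CAGCTG, called the GC-centred core, and shows nearly the same bases around another centre. The hexamer is in capitals.
Il12rb1, chr8:73328954-73328983, plus strand: ggtcctgttgatCAGCTGacgcccggcagg
Il17rb, chr14:30812515-30812544, plus strand: taaatatggggtCAGCTGagaagaagggcc
Dok1, chr6:82955052-82955081, plus strand: aacagtggcagtCAGCTGactctctgactt
Lrrc36, chr8:107970230-107970259, plus strand: ccatcttctggtCAGCTGacccttctgctt

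The third group shows the one-sided cores. CACGAG is the first of them, CACGGG is the next, and the hexamer CACGCG is the last, and each differs from the canonical site at its next-to-last base alone. Those shown are the strongest members in which GT stood before the core, and the hexamer is in capitals.
4930451C15Rik, chr16:17554203-17554232, plus strand: agccctccaagtCACGAGttgctaaaggaa
Il13, chr11:53440653-53440682, minus strand: aaaactaaaagtCACGAGgcctcattatct
Hnrnpf, chr6:117866995-117867024, minus strand: tcggactggggtCACGGGgtgcagagaagg
Asap1, chr15:64144404-64144433, plus strand: gcccgcgccagtCACGGGgacaaacacgga
Cul4b, chrX:35917840-35917869, plus strand: gccacttccggtCACGCGgcgcccgtggag

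The last group shows whole windows of 50 bp to either side, each centred on its summit and written on the plus strand. In the Ankrd33b window the capitals mark 3 CC-centred cores in tandem. In the Tcf20 window they mark the core, here read from its other strand, and CCAATGA, a form of the CCAAT box bound by NF-Y. The Scd1 and Scd3 windows held none of the 5 cores, and their capitals mark CCAAT boxes, read from the other strand in Scd1.
Ankrd33b, chr15:31268520-31268620: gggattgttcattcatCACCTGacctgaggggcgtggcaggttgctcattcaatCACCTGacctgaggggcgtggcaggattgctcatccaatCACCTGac
Tcf20, chr15:82730188-82730288: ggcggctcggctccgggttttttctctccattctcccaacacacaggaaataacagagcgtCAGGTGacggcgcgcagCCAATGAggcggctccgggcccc
Scd1, chr19:44463079-44463179: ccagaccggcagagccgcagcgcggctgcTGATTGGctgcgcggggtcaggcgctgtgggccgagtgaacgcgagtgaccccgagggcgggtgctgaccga
Scd3, chr19:44322809-44322909: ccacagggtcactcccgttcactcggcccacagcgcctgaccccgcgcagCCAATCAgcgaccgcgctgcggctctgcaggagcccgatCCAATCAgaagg

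The members were weaker peaks than distal peaks with an E-box. Their signal had a median of 46.8, with quartiles of 34.4 and 78.3 and a range of 29.1 to 749. The median was 62.4 in distal peaks with CACGTG and 55.5 in those with CACATG alone. Of the members, 255 (36.4%, 95% Wilson interval 32.9 to 40.003) lay above 57.3, the median of all distal peaks, against 51.7% (50.4 to 53.0) of the 5603 distal peaks with either E-box. The odds ratio was 0.53 (Fisher's exact test, two-sided, p = 1.95e-14, adjusted p = 8.78e-14 over 9 comparisons of members with other distal peaks). It was 0.49 against peaks with CACGTG (adjusted exact p = 3.34e-16) and 0.60 against peaks with CACATG alone (adjusted p = 2.64e-08). The members were thus also lower than the weaker of those classes. Regions of 1 list are not independent replicates, and intervals and tests here cover counting error over regions only.

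Strong members were fewer but present. A signal over 200 was reached by 50 members (7.13%), against 762 (13.6%) of the distal peaks with either E-box. The strongest member reached 749 and the strongest distal peak with CACGTG reached 7241. The 951 peaks within 1 kb of a 5′ end that also held neither hexamer had a median of 48.1 and a maximum of 4957, so their median lay close to that of the members while their upper end did not. On either side of the position limits, the 33 members at over 1 and up to 1.5 kb had a median signal of 48.3, against 49.5 for 61 peaks with neither hexamer at over 0.5 and up to 1 kb. The 21 members at over 90 kb had a median of 45.3, against 54.8 for 11 such peaks up to 110 kb away.

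**Figure D1:**
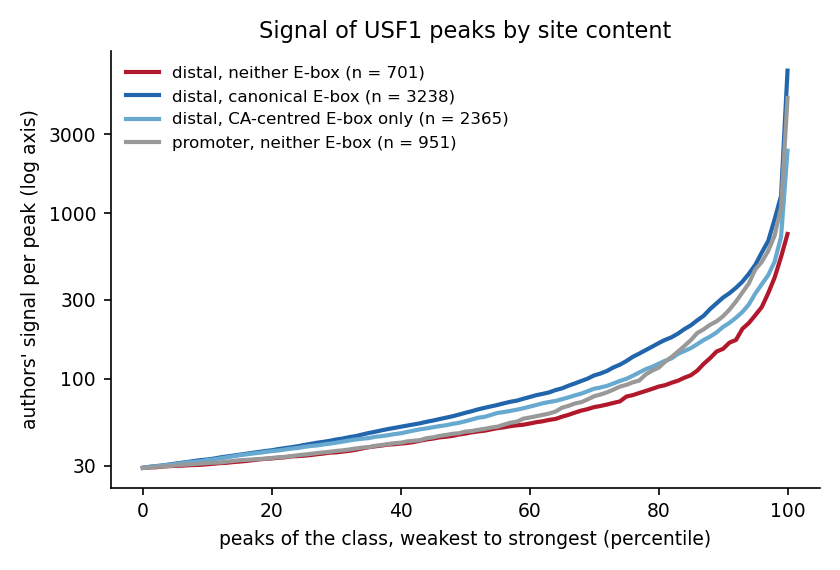
The authors' signal per peak (vertical, log axis) is plotted against the percentile of the peak within its class (horizontal) for members, for distal peaks with CACGTG, for distal peaks with CACATG only and for promoter peaks with neither. The members' line lies lowest over most of its length, with a median of 46.8 and a top of 749, against medians of 62.4 and 55.5 in the distal classes with an E-box.

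Of the measures of position, the nearness of other USF1 peaks passed the test after adjustment and the others did not. Summits in introns of protein-coding genes numbered 334 (47.6%), against 50.1% of distal peaks with either E-box (odds ratio 0.91, Fisher's exact p = 0.229), and the other members were intergenic. The median distance to a 5′ end was 16222 bp, against 17808 bp. Within 10 kb of a 5′ end lay 36.8% of members and 33.0% of the others, a difference whose p of 0.0460 became 0.0689 after adjustment. At a limit of 20 kb in place of 10 kb the odds ratio was 1.29 (exact p = 0.00170, unadjusted), against 1.18 at 10 kb. Another USF1 summit lay within 5 kb of 163 members (23.3%), against 18.2% of the others (odds ratio 1.36, adjusted exact p = 0.00310). A 5′ end of some other transcript type, such as a noncoding one, lay within 1 kb of 41 members (5.85%), against 4.46% (adjusted exact p = 0.134). Chromosome 11 carried 104 members (14.8%), against 10.4% of the distal peaks with either E-box. That share was noticed after the counts were seen and has no test.

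The windows of the members were richer in G and C. GC reached 50% in 65.6% of member windows, against 54.6% of windows with either E-box (odds ratio 1.59, Fisher's exact test, adjusted p = 5.36e-08). The share with 3 or more CpG was 32.4%, against 33.0% (exact p = 0.798). The 33.0% joins 2 unlike classes, 46.4% in distal peaks with CACGTG and 14.6% in those with CACATG alone. The members lay between them, and neither class was tested by itself. CACGTG itself contains a CpG, so the excluded site counts toward this share in the peaks compared. The promoter peaks with neither hexamer had a median of 9 CpG per window and the members had 2.

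Forms that differ from CACGTG at 1 base were frequent at member summits. All 8 such forms other than CACATG were searched on both strands, in the summit window and in a window of equal length centred 500 bp before it. At least 1 of them stood in 469 member summits (66.9%, interval 63.3 to 70.3) and in 134 of the windows before (19.1%), a 3.5-fold difference (exact McNemar test, two-sided, p = 6.91e-69). In distal peaks with either E-box the share was 23.6%, so the members also stood above those peaks (odds ratio 6.56, Fisher's exact p = 1.95e-113). Members had to lack the excluded hexamers and the peaks they were compared with had to hold one, so the rule itself sets the windows apart in this second test.

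These forms were part of a set of 35 strings, each counted once per window on both strands. Of these, 14 strings (40% of those tested) were more frequent at member summits than before them and 2 (5.71%) were less frequent, at an adjusted p under 0.05 (exact McNemar test, Benjamini-Hochberg adjustment over the 35). Against distal peaks with either E-box, 11 strings (31.4%) were more frequent in members and 0 were less frequent (Fisher's exact test, adjusted over the 35). The 11 were the 5 cores described next, CATATG, the strings of NF-Y, NF-kB, ETS and SP/KLF factors, and the T-box string AGGTGNGA (2.71% against 1.25%), whose first bases overlap the CC-centred core. Against promoter peaks with neither hexamer, 13 (37.1%) were more frequent in members and 9 (25.7%) less frequent. At an unadjusted exact p under 0.05, 1 string was lower in members than in distal peaks with either E-box, the RUNX string TGTGGT, at 9.42% against 12.0% (p = 0.0402, adjusted p = 0.105).

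The CC-centred core led the set. It was present in 321 member summits (45.8%, interval 42.1 to 49.5), in 49 windows before the summits (6.99%) and in 57 windows after them. The adjusted p against the windows before was 3.73e-58. It was found in 10.1% of distal peaks with either E-box (odds ratio 7.52, adjusted exact p = 2.41e-106), in 22.5% of promoter peaks with neither (odds ratio 2.91, adjusted p = 2.45e-22) and in 13.2% of all 10624 peaks. In the distal comparison the rule itself again sets the windows apart, which holds for every string compared with distal peaks here, while promoter peaks with neither lack the same hexamers as the members. Most of these members, 281, held a single copy, while 36 held 2 and 4 held 3. The copy nearest the summit lay within 25 bp of it in 84.1% of them, with a median offset of -1.5 bp.

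The GC-centred core came next. CAGCTG was present in 140 member summits (19.97%), 42 windows before and 25 windows after (adjusted exact p = 1.37e-13). Its share was 8.51% in distal peaks with either E-box (odds ratio 2.68, adjusted exact p = 5.46e-17), where the rule sets the windows apart. It was 12.0% in promoter peaks with neither (odds ratio 1.83, adjusted exact p = 4.42e-05). In 77.1% of the 140 members the nearest copy lay within 25 bp of the summit. This core differs from CACGTG at both central bases, so it is not among the 8 single-base forms.

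The 3 one-sided cores were rarer but had low counts away from the summit. CACGAG stood in 60 member summits against 5 windows before, a 12-fold difference (adjusted exact p = 1.21e-12). CACGGG stood in 63 against 17 (adjusted exact p = 8.83e-07), and CACGCG in 25 against 6 (adjusted p = 0.00285). Each was also more frequent in members than in distal peaks with either E-box, with odds ratios of 4.81, 3.72 and 4.28 (adjusted exact p at most 8.33e-07). In that comparison too the rule itself sets the windows apart, so it adds no independent support. All 3 were less frequent in members than in promoter peaks with neither hexamer, and CACGCG, which holds 2 CpG, most of all, at 3.57% against 26.4% (odds ratio 0.10, adjusted exact p = 9.99e-39).

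The other related hexamers did not pass against the windows before. CAAGTG stood in 46 member summits and in 45 windows before (adjusted exact p = 1), and AACGTG in 15 and 11 (adjusted p = 0.609). GACGTG stood in 14 and 9 (adjusted exact p = 0.489), and TACGTG in 5 and 7 (adjusted p = 0.821). The palindrome CATATG stood in 25 and 18 (adjusted exact p = 0.450). Of 10 related hexamers searched, 5 passed this test. CATATG was still more frequent in members than in distal peaks with either E-box, at 3.57% against 1.82% (Fisher's exact test, odds ratio 1.99, adjusted p = 0.0137). The rule sets the windows apart in that comparison as well.

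**Figure D2:**
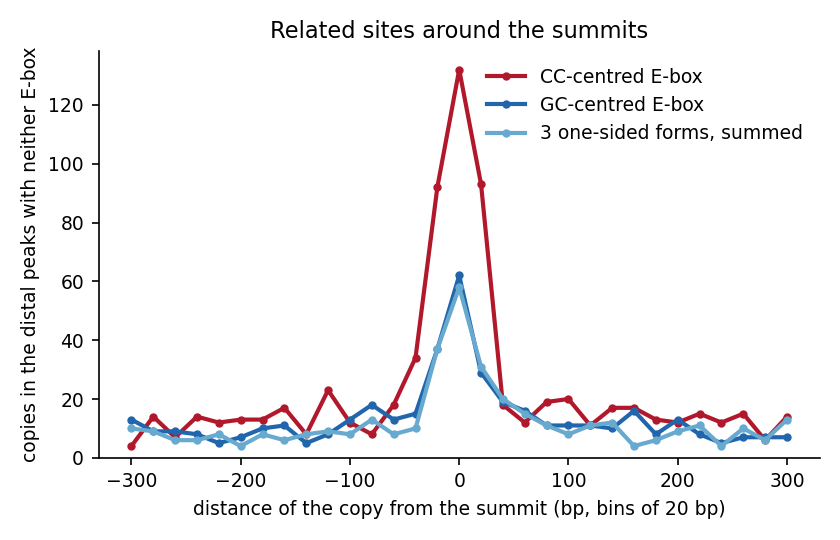
Copies of the CC-centred core, the GC-centred core and the 3 one-sided cores summed (vertical) are counted in bins of 20 bp by their distance from the summit of the 701 members (horizontal). All lines peak in the bin at the summit, with 132, 62 and 58 copies, and the CC-centred line is at 12 to 20 copies 100 bp away on either side.

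The bases next to these cores were counted after the cores themselves had been seen, so they are described with no test. TCACCTGA was present in 181 member summits, 0 windows before and 2 after. The longer GTCACCTGAC, which is the preferred USF site with another centre, stood in 115 summits (16.4% of members) and in 0 windows on either side. For the GC-centred core, TCAGCTGA stood in 71 summits, 2 windows before and 1 after, and GTCAGCTGAC in 43, 0 and 1. These long frames were nearly absent 500 bp from the summits of the same peaks, where strings of such length are rare by themselves.

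The same frame was seen around CATATG, whose core alone did not pass against the windows before. TCATATGA stood in 14 member summits and in 0 windows on either side, and GTCATATGAC in 8 and 0. With an A as the first central base, the framed form stood in 0 to 4 summits, and TCAGATGA stood in 12 summits against 4 windows before and 4 after. Among the 8 centres left by the rule, the frame was thus most frequent by count with the CC and GC centres. Relative to its core, TCATATGA stood in 14 of the 25 summits with CATATG, a share like those of the CC and GC centres. TCACCTGA stood in 181 of 321 summits with its core and TCAGCTGA in 71 of 140. TCAGATGA stood in 12 of the 65 summits with CAGATG.

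Counted over the copy nearest the summit, TCACCTGA made up 174 of 321 (54.2%), against 45 of 911 copies (4.94%) lying 250 to 1000 bp from the summits. CCACCTGA made up 14.95% against 4.61%. The opposite held for CCACCTGC, with 1.87% near the summit and 13.0% away from it. For the GC-centred core, TCAGCTGA made up 68 of 140 nearest copies (48.6%), against 22 of 600 away (3.67%). No other form of the GC-centred core exceeded 10% of the nearest copies.

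The one-sided cores often had GT on their intact side. GTCACGAG was found in 39 of the 60 members with CACGAG, and in 0 windows before and 0 after. GTCACGGG was found in 33 of 63 members with CACGGG, and in 1 window before. GTCACGCG was found in 12 of 25 and in 0 control windows. CACGTT, the other strand of AACGTG, was no more frequent at summits by the test above, yet GTCACGTT stood in 7 of its 15 members, against 1 window before and 0 after. These are the bases that also precede the CC-centred and GC-centred cores in their frames.

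Ranking all 2080 hexamers, merged with their reverse complements, gave the same sequences without naming any beforehand. By the exact McNemar test 129 hexamers (6.2%) were more frequent at member summits than before them and 142 (6.83%) less frequent. The 142 include CACGTG and CACATG, whose absence from the summits the rule fixed. The lowest p belonged to CACCTG, with a log2 ratio of window shares of 2.69, then ACCTGA (2.70), AGGTGA (2.53), GGTGAC (2.90) and CCTGAC (2.23). All of these are parts of the frame GTCACCTGAC. CGTGAC, the end of the canonical frame and its one-sided forms, had a log2 ratio of 3.35, as did CACGAG. Outside the E-box frames, ATTGGC, which overlaps the CCAAT box, stood in 75 summits against 19 windows before (log2 ratio 1.93). Among the less frequent hexamers were CTTTAA (-2.20), ATAAAT (-2.37) and ATTAAA (-2.17), made only of A and T but for 1 C. Among the 436 members whose summit and control windows differed in GC by at most 10 percentage points, 38 hexamers were more frequent and 8 less frequent.

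To see how the cores divide the members, each was placed in the first class whose core it held, in the order CC-centred, GC-centred, one-sided. The CC-centred class held 321 members (45.8%), the GC-centred class 97 (13.8%), the one-sided class 99 (14.1%) and 184 members (26.2%, interval 23.1 to 29.6) held none. At least 1 of the 5 cores was present in 517 member summits (73.8%), against 113 windows before (16.1%), 109 after (15.5%), 22.0% of distal peaks with either E-box and 71.7% of promoter peaks with neither. The classes were drawn after the counts were seen, so these shares are a description. Median signal was 48.7 in the CC-centred class, 53.9 in the GC-centred class, 52.5 in the one-sided class and 38.4 in members with none. In members with none the upper quartile was 52.7 and the maximum 445, so the strongest of them overlapped the other classes.

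**Figure D3:**
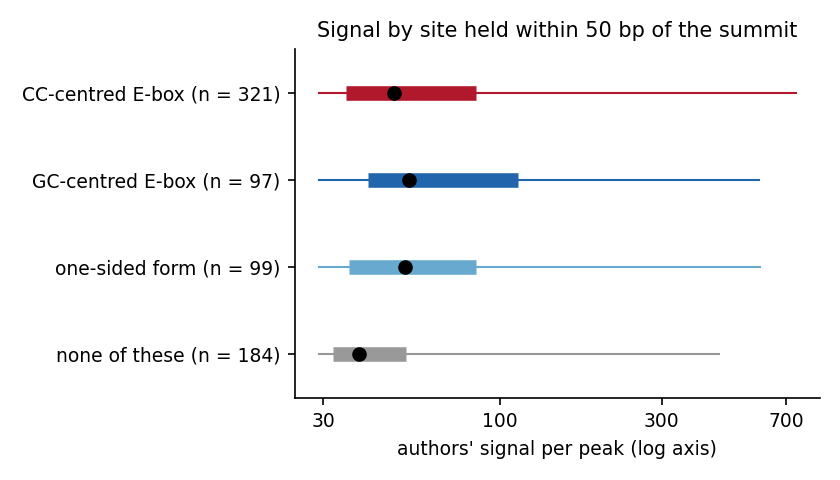
The authors' signal (horizontal, log axis) is drawn for members by the core held within 50 bp of the summit, with the median as a dot, the quartiles as a thick bar and the lowest to highest value as a thin line. Members with none of the 5 cores have the lowest median, 38.4, against 48.7 to 53.9 in the other classes, and all classes start at about 29.

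Members with none of the cores often had an excluded E-box just beyond the window. CACGTG or CACATG lying partly or wholly 50 to 100 bp from the summit was found in 72 of these 184 members (39.1%, interval 32.4 to 46.3), against 17 (9.24%) around the point 500 bp before and 15 (8.15%) around the point 500 bp after. Among the 517 members with a core it was found in 51 (9.86%), against 54 before and 75 after. The 72 had a median signal of 38.3 and the other members with none of the cores 38.4. These medians were nearly equal. The position of the summit in the deposited list is a single base, and how precisely it was called was not tested.

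Over a wider range, the excluded E-boxes as a pair did not pass a test of nearness. CACGTG or CACATG at over 50 and up to 250 bp was found for 225 members, against 231 at over 550 and up to 750 bp (exact McNemar p = 0.764). CACGTG alone was found for 66 against 43 (exact p = 0.0250), and CACATG for 187 against 204 (p = 0.318). By class the counts were as follows, with no test. In members with none of the cores CACGTG was found for 35 against 10 and CACATG for 70 against 42. In the CC-centred class the counts were 21 against 17 and 81 against 103, in the GC-centred class 3 against 4 and 20 against 35, and in the one-sided class 7 against 12 and 16 against 24.

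Strings of other factors were also found at member summits. The CCAAT box bound by NF-Y, a factor of many promoters that is known to work beside USF, was searched as CCAATNA and found in 76 member summits (10.8%), against 30 windows before (4.28%, adjusted exact p = 1.43e-05). It was found in 6.59% of distal peaks with either E-box (odds ratio 1.72, adjusted exact p = 3.71e-04) and in 11.3% of promoter peaks with neither (adjusted p = 0.862). It overlapped a core in 4 of the 76. In the 50 members with both, the distance from the CCAAT box to the nearest core had a median of 17.5 bp, quartiles of 16.5 and 26.5 bp, and lay between 15 and 25 bp in 26. Members with none of the cores held it in 26 of 184 summits, against 5 windows before. The Tcf20, Scd1 and Scd3 windows printed above are examples.

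The NF-kB string, GGGA and TT and CC with any base between each, read by the Rel family that acts downstream of B-cell and cytokine receptors, was found in 25 member summits (3.57%), against 3 windows before (adjusted exact p = 1.20e-04). Its share was 1.12% in distal peaks with either E-box (odds ratio 3.25, adjusted exact p = 3.02e-05) and 0.736% in promoter peaks with neither (odds ratio 4.99, adjusted p = 1.33e-04). It overlapped a core in 1 of the 25. Its strongest holder lay in an intron of Kdm2b, which encodes a histone demethylase, with a signal of 217. The octamer ATGCAAAT, bound by the POU factors of B cells, was found in 14 summits against 1 window before (adjusted exact p = 0.00285), and the strongest lay in an intron of Slc11a1, a metal transporter of phagocytes, with a signal of 112. GAGGAAGT, a site of the myeloid and B-cell factor PU.1, was found in 19 against 5 (adjusted exact p = 0.0178), and the ETS string CCGGAAG in 23 against 5 (adjusted p = 0.00285). Of these B-cell and immune strings, the test against distal peaks with either E-box was passed by NF-kB and by ETS (3.28% against 1.23%, adjusted exact p = 5.68e-04), and not by the octamer (adjusted p = 0.0981) or PU.1 (adjusted p = 0.320). Among the 350 members of higher signal, the counts were 10 against 3 for NF-kB (adjusted exact p = 0.215), 4 against 1 for the octamer (adjusted p = 0.525) and 11 against 5 for PU.1 (adjusted p = 0.387), and none of these passed.

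The AP-1 string TGANTCA, read by FOS, JUN and BATF proteins, was found in 68 member summits (9.70%), against 19 windows before (adjusted exact p = 3.92e-07). Distal peaks with either E-box held it at 8.60% (adjusted exact p = 0.449) and promoter peaks with neither at 2.63% (odds ratio 3.98, adjusted p = 5.45e-09). In 32 of the 68 (47.1%) it overlapped a core, and the string shares TGA and TCA with the edges of the frame. AGGTCA, a single arm of nuclear receptor sites, was found in 146 summits against 49 windows before (adjusted exact p = 1.21e-12), and in 86 of the 146 (58.9%) it overlapped a core. With the cores and 2 bases on each side masked, AP-1 was left in 36 summits against 19 windows before (adjusted exact p = 0.117) and AGGTCA in 64 against 48 (adjusted p = 0.389). The single arm TGACGT of the cAMP response element was found in 21 against 7 (adjusted exact p = 0.0314), and 7 of the 21 overlapped a core. With cores masked, NF-Y, NF-kB, SP/KLF, octamer and ETS strings stayed more frequent at summits, at an adjusted exact p of at most 0.0285. TGACGT was then found in 14 against 7 (adjusted exact p = 0.468) and the PU.1 string in 17 against 5 (adjusted p = 0.0868), and neither passed. With windows of 25 bp each side, TGACGT, PU.1 and the octamer did not pass, at 13 against 4, 9 against 1 and 6 against 0 (adjusted exact p = 0.107, 0.0578 and 0.0781).

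The GC-rich string GGGCGG of SP and KLF factors, common in promoters, was found in 59 member summits (8.42%), against 24 windows before (adjusted exact p = 1.51e-04) and 42.0% of promoter peaks with neither (odds ratio 0.13, adjusted p = 6.30e-55). Distal peaks with either E-box held it at 3.96% (Fisher's exact test, odds ratio 2.23, adjusted p = 4.86e-06). Among members whose summit and control windows differed in GC by at most 10 percentage points, it was found in 20 against 15 (adjusted exact p = 0.658). Less frequent at summits than before them were AGATAA of GATA factors, in 20 against 38 (adjusted exact p = 0.0434), and the IRF string, GAAA repeated after any 2 bases, in 4 against 15 (adjusted p = 0.0434). In the same GC-close members these were 15 against 20 and 3 against 6 (adjusted exact p = 0.658 each). Against the windows after the summits, AGATAA stood in 20 against 40 (adjusted exact p = 0.0244) and the IRF string in 4 against 9 (adjusted p = 0.406). The IRF string passed in no alternative run, and AGATAA passed in some of them.

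**Figure D4:**
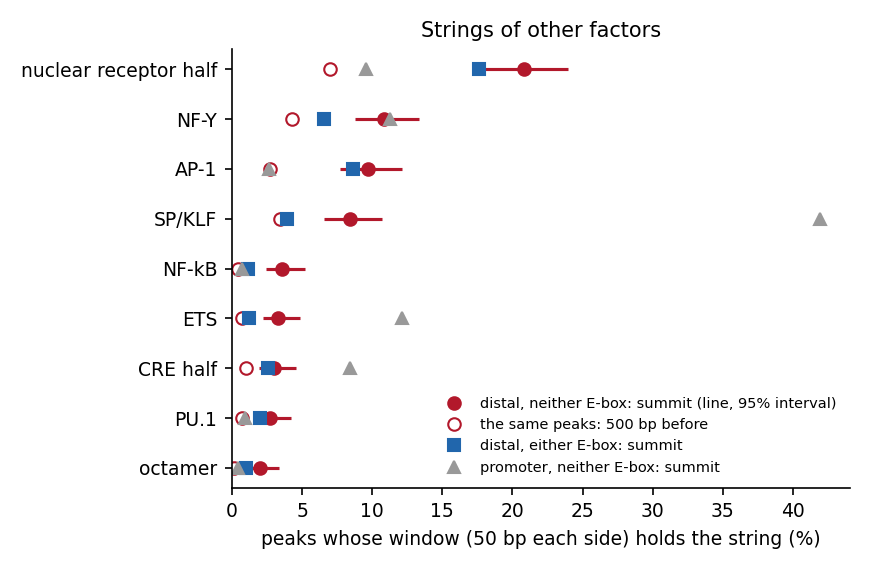
For each string of another factor that was more frequent at member summits, the share of windows holding it is plotted in percent (horizontal) for member summits with a 95% interval, for windows 500 bp before the same summits, for distal peaks with either E-box and for promoter peaks with neither. SP/KLF stands at 8.42% in members and 42.0% in those promoter peaks. AP-1 and NF-kB stand higher in members than in those promoter peaks, at 9.70% against 2.63% and 3.57% against 0.736%. In distal peaks with either E-box AP-1 stands at 8.60%, close to the members, and NF-kB at 1.12%.

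Within the members, the strings were set against signal. Of 18 strings held by 20 or more members, 1 (5.56%) passed a test of the share above the members' own median (Fisher's exact test, adjusted over the 18). This was AGGTCA, with a median signal of 52.9 in members that held it and 45.0 in the rest (adjusted exact p = 0.0280). In 86 of the 146 members that held it, AGGTCA overlapped a core, and its part apart from the cores was not tested. With windows of 25 bp each side the CC-centred core passed as well. The same test for the CC-centred core compared medians of 48.7 and 44.2 (adjusted exact p = 0.147), for the GC-centred core 52.0 and 45.3 (adjusted p = 0.0847), and for CCAATNA 66.6 and 45.5 (adjusted p = 0.131).

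The 20 strongest members had signals from 341 to 749, and 18 of them held a core. The CC-centred class gave 12, the GC-centred class 4, the one-sided class 2 and members with no core 2. The strongest, at 749, lay 4152 bp downstream of the 5′ end of Ppy, which encodes the gut hormone pancreatic polypeptide, in intergenic sequence. The next, at 748, lay in an intron of Tcf20, a transcriptional coregulator. A summit of 701 lay in an intron of Cabp1, a neuronal calcium-binding protein, and one of 572 in an intron of Pgs1, an enzyme of cardiolipin synthesis. All of these held the CC-centred core printed above.

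Of the next, a GC-centred peak of 583 lay 3381 bp upstream of Il12rb1, a subunit of the IL-12 and IL-23 receptors, and another of 458 in an intron of Il17rb, a receptor for IL-25. A CC-centred peak of 552 lay 9177 bp downstream of the 5′ end of Cebpb, a bZIP factor of inflammation and fat cells. One of 379 lay 19864 bp upstream of Eif2ak3, which encodes the endoplasmic reticulum stress kinase PERK, and one of 447 lay 7737 bp upstream of Eef2k, a kinase that slows translation elongation. A GC-centred peak of 409, whose nearest 5′ end belonged to the adaptor gene Dok1, lay in an intron of D6Mm5e. The nearest gene is a matter of distance, and whether these peaks act on it was not tested.

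A peak of 545 lay 3650 bp upstream of Uqcrfs1, the Rieske iron-sulfur protein of respiratory complex III, and held CACCTG between AG and AC. Peaks of 445 and 419, both with no core, lay downstream of the 5′ ends of Scd1 and Scd3, which encode desaturases that make monounsaturated fatty acids. Their summits are 140 kb apart and their windows share a run of 44 bp, on opposite strands as printed. The part of this shared sequence in their signals was not tested. Among all members, 18 shared a run of 30 bp with another member.

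The remaining strong members were mixed. The peak of 588 nearest Tlcd2, with CACGAG, lay 33 bp from the 5′ end of a transcript of another type, and so is distal only to protein-coding starts. The peak of 524 in an intron of Ankrd33b held the 3 tandem cores printed above. Gm2574 (478), the deubiquitinase gene Usp3 (378), Lrrc36 (356), 1700054N08Rik (356) and Hnrnpf (341), a splicing regulator, complete the 20. The Hnrnpf summit held CACGGG in the frame shown.

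The members were spread over many genes. They were nearest to 635 of 22238 protein-coding genes (2.86%), and distal peaks with either E-box were nearest to 17.6%. Of the 635, 56 were nearest to 2 or more members. Zbtb20, a repressor of the BTB zinc-finger family, had 5 members with a median signal of 55.3. Bhlhe40, a helix-loop-helix repressor linked to the circadian clock, had 4 with a median of 34.6, and B3gnt2, Ccr7, Igsf5, Rab11fip4 and Rpl39l had 3 each.

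Lists of genes gave small counts. The lists had 14 to 30 annotated genes each, and their shares are descriptions to be read beside 2.86% for all genes. Of 29 genes of B-cell identity, 4 (13.8%, interval 5.50 to 30.6) were nearest to a member. These were Pax5, the factor that commits cells to the B lineage, with a signal of 180 and a CC-centred core in an intron, Ebf1 (83.2, with 2 members) and Ikzf1 (40.8), both without a core, and Irf4 (39.2). Of the same list, 62.1% were nearest to a distal peak with either E-box.

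Of 25 genes of NF-kB and cytokine signalling, 5 (20%, interval 8.86 to 39.1) were nearest to a member. Tnfaip3, the NF-kB inhibitor A20, had the strongest peak, a GC-centred one of 201 lying 62582 bp upstream. Jak2, a cytokine receptor kinase, had a CC-centred peak of 86.6, followed by Pim1 (52.5), the feedback inhibitor Socs3 (40.5) and Lta (36.4). Of 18 AP-1 and ATF genes 2 were nearest to a member, Batf, with a CC-centred peak of 150 in an intron, and Fosb (34.9). Of 17 annotated genes of helix-loop-helix leucine zipper factors 2 were, the MAX partner Mnt (78.3) and Mlxip (63.4), a partner of MLX in glucose sensing. Distal peaks with either E-box were nearest to 60% of the NF-kB and cytokine list, against 17.6% of all genes. For the AP-1 and ATF list that share was 50%, and for the leucine zipper list 47.1%. High shares in these lists are thus not particular to the members.

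None of 30 genes of the vacuolar proton pump and the lysosome was nearest to a member, where 7 of the 30 (23.3%) were nearest to a distal peak with either E-box. A 5′ end within 50 kb of a member was found for 1 of the 30, against 5.69% of all genes. Markers of other cell types gave 1 of 19 for T cells (Ctla4, 78.8), 1 of 15 for liver and 0 of 14 for neurons. The liver gene was Apoh, whose peak of 222 lay 90759 bp upstream within an intron of Prkca, the gene of protein kinase C alpha. Counts this small do not separate the lists from one another.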

How the data were processed

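Per the deposited readme files, the list used here is a narrowPeak list in mm9 derived from the alignments of both replicates. Neither the aligner nor the peak caller and its threshold is given in the sources used here, and no control library was used here. Column 7 is the authors' deposited signal, with no stated scale. Column 9 was read as the authors' deposited −log10 q value, as the format has it. Depth per sample is unknown. The mm10 lists, those of each replicate included, were not used, since no mm10 sequence was used here and coordinates were not converted.

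The summit was column 2 plus column 10, and coordinates are 1-based. Sequence came from NCBIM37 and genes from Gencode vM1. Windows were searched on both strands for 35 strings. Beside those in the report, they were TGACGTCA (CRE), GGNGGCAG (part of a CTCF site), AANATGGC (YY1), TTCNNNGAA (STAT), TTGCNNAA (C/EBP), TGATGCAA (ATF4), TGTTTAC (FOXO), TCACNCCAC (SREBP), AGGTGNGA (T-box), and strings for EBF (TCCC, any 2 bases, GGGA), MEF2 (CTA, any 4 bases, TAG), NRF1 (GCGCA, any base, GCGC) and MAF (TGC before the AP-1 string), and none of these differed from the windows before at an adjusted p under 0.05. Hexamer ratios used a pseudocount of 1 window. Tests were two-sided Fisher's exact or exact McNemar tests with Benjamini-Hochberg adjustment within a family and a threshold of 0.05, and intervals are 95% Wilson intervals. The tests were tried on simulated data. Named genes are those nearest to the 20 strongest members, the strongest holder of a string that passed, list genes up to 4 per list by signal, of which Lta is the fifth of its list, and genes with 3 or more members. The members, strings and lists were chosen with earlier results of these data known. Python 3.11.15, SciPy 1.17.1, NumPy 2.4.6 and pandas 2.3.3 were used.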

Additional observations from a re-analysis of the deposited data

How the results depend on the processing

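The lower signal of members kept its direction and passed in 7 alternatives (odds ratios 0.385 to 0.640). Column 9 split the peaks at the median as the signal does, so it gave the same odds ratio of 0.53. Column 9 was tied at 3.74 in the 20 strongest members, so it does not rank all peaks as the signal does. The higher GC, the neighbouring summits and the share with a single-base form also passed in every alternative run, and the intron share passed in none. Counts of strings stayed within 1.5 times of those reported except as given here. The share within 10 kb of a 5′ end had an unadjusted exact p that passed, with an odds ratio of 1.18, and did not pass at 5 kb (1.21, p = 0.0582) or with an E-box window of 25 bp (1.05, p = 0.433). It passed at 20 kb (1.29, p = 0.00170) and with an E-box window of 100 bp (1.25, p = 0.0143), all unadjusted exact tests. The CpG comparison turned from 0.97 at 3 or more CpG to 1.83 at 5 or more (exact p = 1.84e-06). E-boxes beyond the window turned from a ratio of 0.974 to 1.53 (exact p = 0.0250) for CACGTG alone. The cause was not tested. Masking the cores left 5 strings more frequent at summits where 14 had been, and 5 of the strings lost are the cores themselves. Hexamers more frequent at summits numbered 62 in the stronger members (350) and 38 where GC was within 10 points (436 members), against 129, and less frequent ones 42 and 8, against 142. Both alternatives test fewer members, and the part of this in the lower counts was not tested. The GC-close set was the larger of the pair and gave the lower counts. The strings that went with signal numbered 2 with windows of 25 bp, AGGTCA and the CC-centred core, and 0 with 100 bp, against 1. Single strings and lists kept their call or count in 87 recomputations and lost the call in 25. In 3 lists the count changed between 0 and 1 when genes with a 5′ end within 50 kb of a member were counted. The vacuolar pump and lysosome list went from 0 to 1 of 30 (3.33%, against 5.69% of all genes). The liver list went from 1 to 0 of 15 and the neuron list from 0 to 1 of 14. With GC within 10 points SP/KLF stood in 20 summits against 15, PU.1 in 10 against 4 and CACGCG in 11 against 2, and these did not pass. In the stronger members NF-kB (10 against 3), the octamer (4 against 1), PU.1 (11 against 5) and TGACGT (15 against 5) did not pass. GC-close members, masked cores, distance from all transcripts and left-out chromosomes were chosen after seeing the data. No pairing of samples was possible because the series has 1 group, and the McNemar tests pair windows of the same peak. Leaving out a replicate was not run, because the mm9 list joins both, and repeats were not compared, because the genome used carries no soft-masked bases. Depth is unknown, so no limit of detection can be given.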
